A study of Mus musculus with 12 samples.

Results

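Long domains of histone H3 acetylated at lysine 27 (H3K27ac) that were called in both lists of the non-interneuron cells of the newborn mouse cortex, with less than 50% of their length under peaks shared by both interneuron lists, are described here. There were 629 of them, among 8096 non-CIN stretches of 1500 bp or longer and 34953 non-CIN stretches of any length. They were selected on the H3K27ac peaks of the 4 H3K27ac lists, so their length and their H3K27ac in both populations are descriptions without a test. In each list, peaks 500 bp or less apart were merged. A non-CIN stretch is the bp shared by both non-CIN lists, and a CIN stretch is the bp shared by both CIN lists. A domain was kept when it was at least 1500 bp long and less than 50% of it lay under CIN stretches. This held for 7.77% of the long non-CIN stretches, and the domains covered 1406772 bp of the mm10 genome.

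H3K27ac is laid down on nucleosomes around active promoters and enhancers, and long runs of it often lie over several neighbouring elements of genes that are strongly expressed in a cell type. H3K27me3, trimethylation of the same lysine by Polycomb repressive complex 2, marks repressed or poised genes, and 1 histone tail cannot carry both at that residue. In the cortex at birth, radial glia are turning into astrocytes, oligodendrocyte precursors are spreading, and the excitatory projection neurons outnumber the interneurons.

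The cells came from neocortex of Gad67-GFP heterozygote pups at postnatal day 2, so both populations carried the reporter allele. They were sorted into GFP+ cortical interneurons (CINs) and GFP- cells (non-CINs), and each sample pooled several litters. Native chromatin immunoprecipitation was done for H3K27ac and for H3K27me3, with 2 replicates of each mark in each population, giving 8 lists of broad peaks. Its 4 input samples served the peak calling and have no list. The H3K27ac lists held 46040 to 62505 peaks and the H3K27me3 lists 36662 to 45081. Non-CINs are a mixture of projection neurons, glia and vascular cells, so that fewer cells with a mark and less of the mark per cell cannot be told apart.

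Sequences of 7 domains are shown to let the DNA of these domains be read directly. The Lrig1 and Mki67 domains of the first pair of lines are the 2 that no peak of either CIN list touched. The next is the longest Lrig1 domain without any shared CIN stretch, the fourth is the Acsbg1 domain among the longest, and the last 3 are at glial genes. Each line gives 200 bp of mm10 (plus strand, 5′ to 3′, RefSeq assembly sequence) from the longest piece of the domain that was free of CIN peaks, at the place with the fewest repeat-masked bases and outside exons. Capitals mark exact matches on either strand to 12 short transcription factor cores, spelled out with their frequencies at the end of the results.

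Lrig1, chr6:94637890-94638089: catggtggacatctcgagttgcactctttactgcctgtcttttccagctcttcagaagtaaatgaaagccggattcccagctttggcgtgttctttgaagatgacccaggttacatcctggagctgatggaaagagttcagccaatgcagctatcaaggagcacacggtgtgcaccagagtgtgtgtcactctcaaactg
Mki67, chr7:135713397-135713596: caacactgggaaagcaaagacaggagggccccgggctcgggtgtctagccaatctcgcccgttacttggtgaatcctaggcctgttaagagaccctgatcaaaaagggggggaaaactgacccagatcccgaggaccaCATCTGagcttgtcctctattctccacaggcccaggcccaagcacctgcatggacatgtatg
Lrig1, chr6:94694341-94694540: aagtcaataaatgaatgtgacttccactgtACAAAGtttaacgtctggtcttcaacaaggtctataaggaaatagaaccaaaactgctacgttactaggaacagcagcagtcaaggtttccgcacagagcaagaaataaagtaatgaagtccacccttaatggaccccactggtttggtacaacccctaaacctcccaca
Acsbg1, chr9:54663422-54663621: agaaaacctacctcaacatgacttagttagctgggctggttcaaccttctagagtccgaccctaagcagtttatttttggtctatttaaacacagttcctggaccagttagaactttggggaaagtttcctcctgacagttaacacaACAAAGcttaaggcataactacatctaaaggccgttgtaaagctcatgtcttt
Apoe, chr7:19700293-19700492: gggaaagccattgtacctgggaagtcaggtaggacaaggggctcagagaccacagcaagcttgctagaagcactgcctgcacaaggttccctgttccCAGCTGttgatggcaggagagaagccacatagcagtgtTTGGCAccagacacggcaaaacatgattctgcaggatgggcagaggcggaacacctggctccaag
Slc1a3, chr15:8673406-8673605: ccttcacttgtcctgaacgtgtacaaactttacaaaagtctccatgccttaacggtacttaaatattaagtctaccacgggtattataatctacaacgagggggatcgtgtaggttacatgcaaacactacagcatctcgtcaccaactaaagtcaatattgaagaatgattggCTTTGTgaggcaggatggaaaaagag
Nfia, chr4:98049414-98049613: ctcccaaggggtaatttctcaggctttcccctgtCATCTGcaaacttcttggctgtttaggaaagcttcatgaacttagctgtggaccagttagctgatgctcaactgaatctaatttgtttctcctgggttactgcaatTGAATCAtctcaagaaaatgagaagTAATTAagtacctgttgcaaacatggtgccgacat

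The Lrig1 sequence of the first line and the whole of its 1816 bp domain lie in an intron, and the line holds none of the 12 cores. The Nfia line holds 3 cores, a homeodomain core, a neurogenic E-box and a match to the AP-1 pattern TGANTCA, where N is any base.

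Shared CIN H3K27ac covered a part of most domains. The median domain was 35.3% covered by CIN stretches, 447 of the 629 were covered between 25% and 50%, and 51 (8.11%) were not covered at all. Even these 51 usually touched a peak of 1 CIN list: 27 had bp under the CIN replicate 1 list and 30 under the replicate 2 list. Only the Lrig1 intron domain (chr6:94636876-94638691, 1816 bp) and the Mki67 domain (chr7:135712954-135714508, 1555 bp, including 195 bp of exon) had no bp under either CIN list. Lrig1 encodes a membrane protein that restrains ErbB receptors, and Mki67 encodes the proliferation marker Ki-67. Both were named because so few domains met this condition, after their values were seen.

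The opposite set was more sharply divided. Of 7767 CIN stretches of 1500 bp or longer, 718 had less than 50% cover by non-CIN stretches. Their median cover was 12.1%, 318 (44.3%) had none, and 171 (23.8%) had no bp under either non-CIN list, against 2 (0.318%) of the 629. Both sets were picked by the same limit, so that these shares carry no test.

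Part of the low CIN cover came from disagreement between the CIN lists. Taken alone, the CIN replicate 1 list covered 54.6% of the domains' bp and the replicate 2 list 50.3%. Less than 50% was covered in replicate 1 for 303 domains, in replicate 2 for 344, and in each of the lists for 122 (19.4%). In the union of both CIN lists 92 domains (14.6%) stayed under 50%, against 403 (56.1%) of the 718 CIN-biased stretches. The strongest non-CIN peak in a domain sat at a median percentile of 66.9 of fold enrichment in the non-CIN replicate 1 list and 64.7 in replicate 2. The same medians were 88.4 and 87.6 over the other 7467 long non-CIN stretches. The strongest peaks of the domains thus ranked lower in their own lists than those of the other long stretches.

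**Figure D1:**
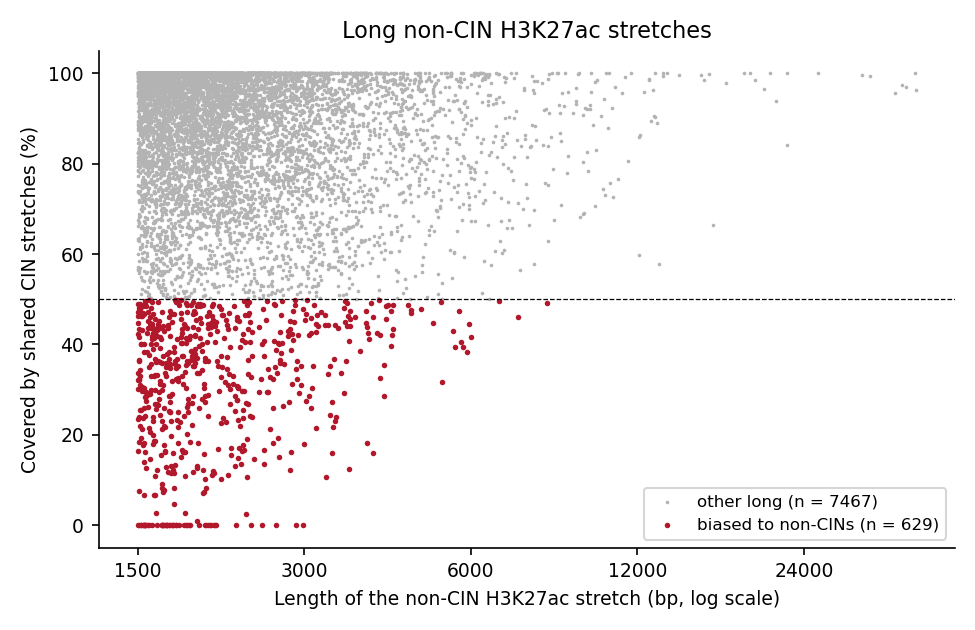
Each point is a long non-CIN H3K27ac stretch, placed by its length (bp, log axis) and by the percent of it under CIN stretches, with the 629 domains biased to non-CINs in red and the other 7467 in grey. No red point lies above 8244 bp, and those at 0% cover are all shorter than 3000 bp.

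CIN H3K27ac within the domains sat toward their middle. When each domain was cut into 5 equal parts, CIN stretches covered 22.8% of the bp of the part at the low-coordinate end, 41.6% of the central part and 21.8% of the part at the high-coordinate end. Of the domains, 443 overlapped a single CIN stretch and 135 overlapped 2 or more, which could run past the edge of the domain. Repeat-masked sequence made up 11.2% of the domain bp under CIN stretches and 17.6% of the bp under no peak of either CIN list. The authors kept only reads that mapped well, and the part of repeats in the CIN gaps was not tested. Over all domain bp the masked share was 14.6%, and over the other long stretches it was 12.4%.

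Lengths ran from 1500 to 8244 bp with a median of 1907 bp, and 357 domains were under 2000 bp. The share of long non-CIN stretches that were biased was 9.67% from 1500 to 2000 bp and 4.50% at 4000 bp or more. Longer domains were also closer to the limit: the 32 of at least 4000 bp had a median CIN cover of 44.6%, none below 28.7%. No domain of 3000 bp or more was free of CIN stretches, and the longest that was had 2984 bp, in Mad1l1.

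The longest of the domains was an 8244 bp run in the body of Lrig1 (chr6:94628110-94636353), with 4827 bp under the CIN replicate 1 list and 5912 bp under replicate 2. By construction both non-CIN lists covered every domain in full, so the CIN values are the ones that vary. Next came 7312 bp over a start of Tnfrsf19 (chr14:61034404-61041715), a TNF receptor family member, with 3554 and 5737 bp in the CIN lists. Then came 6736 bp over an annotated start of Aqp4 (chr18:15400912-15407647), the water channel of astrocyte endfeet, with 3731 and 3971 bp. In all 3, each CIN list covered a part of the domain and neither covered it whole.

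Membrane and signalling genes were also among the 20 longest. Mmd2 had 5993 bp in its body, with 2947 and 4374 bp in the CIN lists. Sema6a, a transmembrane semaphorin, had 5948 bp over a start, with 5202 and 2694 bp. These 2 show opposite replicates, with the larger cover in CIN replicate 2 for Mmd2 and in replicate 1 for Sema6a. Fgfr3, a fibroblast growth factor receptor of progenitors and astrocytes, had 5768 bp over its start (chr5:33721385-33727152), with 2966 and 3140 bp. Gpm6b, a proteolipid family member, had 5331 bp over a start, with 1687 and 4442 bp. Ptk2, the focal adhesion kinase, had 5295 bp in its body, with 3875 and 3231 bp, and Nedd9, an adhesion scaffold protein, had 5626 bp, with 2265 and 2928 bp.

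So were regulators of RNA and transcription. Msi2, an RNA-binding protein of neural stem cells, had 5897 bp (chr11:88547717-88553613), with 4595 and 2266 bp in the CIN lists. Fezf2, the factor that specifies subcerebral projection neurons, had 5809 bp over an annotated start, with 4388 and 2291 bp. Nfia, a driver of gliogenesis, had 4615 bp in its body, with 4615 and 2249 bp, so that its whole domain was under the CIN replicate 1 list. Zfp217 had 5570 bp over a start, with 3703 and 2670 bp, and Zfp787 had 4338 bp, with 3188 and 2083 bp. Nfia thus entered through the CIN replicate 2 list alone.

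The remaining long domains included lipid and adhesion genes. Acsbg1, an acyl-CoA synthetase, had 5711 bp over a start (chr9:54659405-54665115), with 2704 and 4160 bp in the CIN lists. Apoe, the main lipid carrier made by astrocytes, had 4343 bp over its start (chr7:19697540-19701882), with 2112 and 2494 bp. Cadm2, a neuronal adhesion molecule, had 4676 bp in its body, with 3642 and 2318 bp. The others were at Iqce (5134 bp), Ostm1 (4871 bp) and Gramd4 (4677 bp), where the replicate 1 list covered 3433 to 3810 bp and the replicate 2 list 2232 to 3261 bp.

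**Figure D2:**
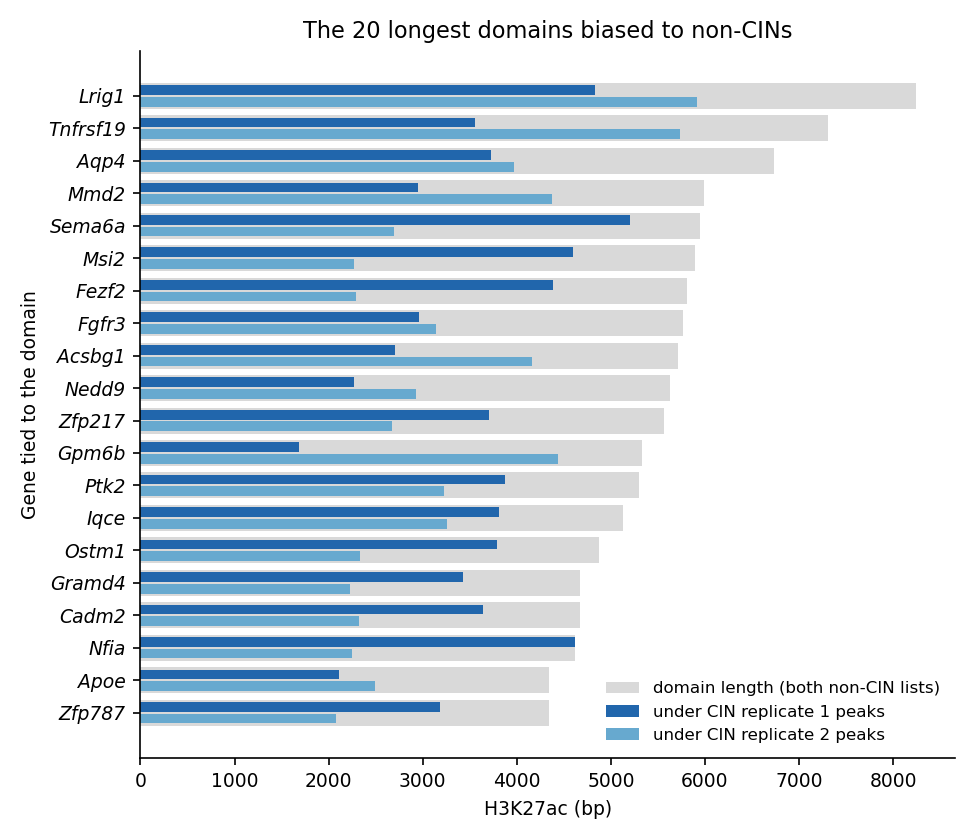
Grey bars give the length (bp) of the 20 longest domains, named by the gene each is tied to, and blue bars the bp of it under the H3K27ac peaks of CIN replicate 1 (dark) and replicate 2 (light). Every CIN bar is shorter than its grey bar except the replicate 1 bar of Nfia, which reaches 4615 bp.

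Most domains lay away from promoters. An annotated transcription start site (TSS) was inside 110 of the 629 (17.5%, 95% Wilson interval 14.7 to 20.7%), against 51.4% of all long non-CIN stretches and 54.2% of those with more CIN cover. The interval covers counting error only. A further 401 domains (63.8%) lay in gene bodies and 118 (18.8%) between genes. Of those in gene bodies, 377 were in protein-coding genes and 303 (75.6%) held no exon. The CIN-biased stretches had a TSS in 22.6%, so both biased sets had fewer TSSs than the shared stretches.

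Base composition followed position. Domains without a TSS had a median GC of 46.2% and a CpG observed over expected ratio of 0.207, near the 46.3% and 0.228 of the other long stretches without a TSS. Domains with a TSS had a GC of 53.8%, near the 55.4% of the other long stretches with one, but a CpG ratio of 0.396 against 0.676. The TSS share was 13.4% of the domains under 2000 bp and 43.8% of those of 4000 bp or more. These are descriptions over regions, which are not replicates.

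**Figure D3:**
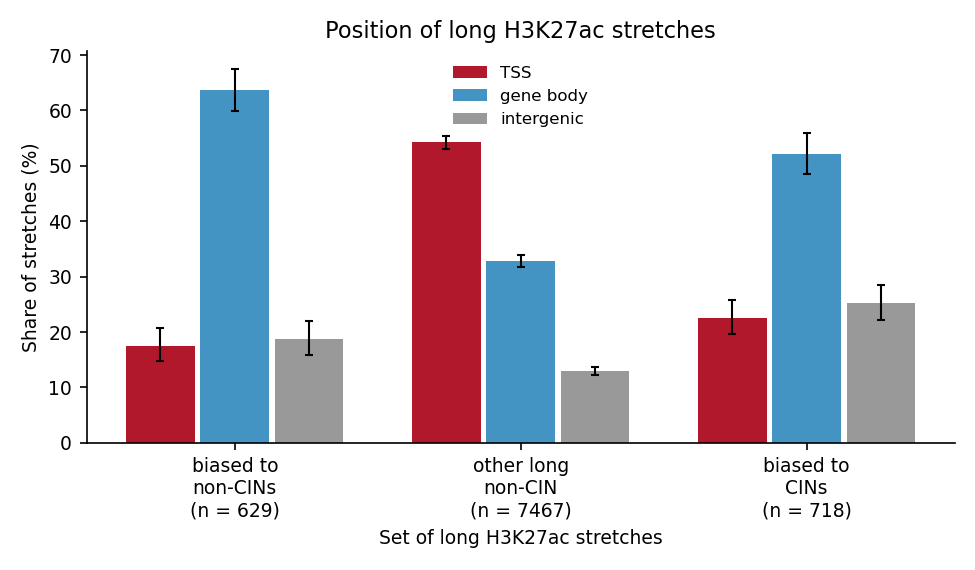
Bars give the percent of stretches that held a TSS, lay in a gene body or lay between genes, for domains biased to non-CINs, other long non-CIN stretches and CIN-biased stretches, with 95% Wilson intervals. The TSS bar is 17.5% for the domains and 54.2% for the other long stretches.

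At promoters the CIN signal was shorter on both sides of the start. A TSS base lay under a CIN stretch in 54 of the 110 domains with a TSS (49.1%). In 79 domains the protein-coding TSSs belonged to a single gene, which gives a direction of transcription, with noncoding TSSs set aside. There, CIN stretches covered 40.8% of the 75278 domain bp upstream of the TSS and 34.2% of the 139537 bp downstream. At the TSS itself 70.9% of the 79 genes were covered in CIN replicate 1 and 55.7% in replicate 2. At 1000 bp downstream these were 44.3% and 30.4%, against 78.5% and 74.7% in the non-CIN lists.

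Of the marker lists, that of astrocytes and radial glia held the most genes with a domain. The window of a gene ran from 5 kb before its TSS to its end. Of 42 genes of the astrocyte and radial glia list, 10 (23.8%, 95% Wilson interval 13.5 to 38.5%) had a domain in it, against 1.95% of all 21911 protein-coding genes. They were Aqp4, Slc1a3, Aldoc, Nfia, Fgfr3, Slc4a4, Tnc, Ttyh1, Notch2 and Apoe, and the windows held 16 domains in all. Without the CIN replicate 1 list the count was 4 of 42 genes, and without replicate 2 it was 7. Any long non-CIN stretch lay in the window of 37 of the 42 (88.1%), against 25.8% of protein-coding genes. The median window was 17.9 kb in the list and 22.4 kb over protein-coding genes. The list was thus rich in long H3K27ac of either kind, and the lists were fixed with earlier results known, so no test was made.

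Slc1a3, the glial glutamate transporter GLAST, held 3 domains of 2932, 2085 and 1748 bp in its 81.6 kb window. The CIN lists covered 2053 and 855 bp of the longest, 832 and 1011 bp of the next and 222 and 874 bp of the shortest (chr15:8681020-8682767), which was the least covered by shared CIN stretches at 4.69%. Over the whole Slc1a3 window the CIN lists held 23097 and 24855 bp of H3K27ac, and the non-CIN lists held 35697 and 41332 bp. No CIN value reached either non-CIN value, which the choice of the domains in this window favours.

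Nfia held 4 domains in a 351 kb window that also held 17 other long non-CIN stretches and 1 CIN-biased stretch. The CIN lists held 104896 and 82596 bp of H3K27ac in that window, and the non-CIN lists held 118977 and 121263 bp. H3K27ac was thus extensive at Nfia in both populations, with the domains as a small part of it. Tnc, an extracellular matrix glycoprotein of progenitors, held 2 domains of 2655 and 2010 bp. The CIN lists covered 1418 and 1775 bp of the first and 730 and 1263 bp of the other.

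The other genes of this list had a single domain each. In Ttyh1 a 3386 bp domain had 1214 and 811 bp in the CIN lists, and in Slc4a4, a sodium bicarbonate cotransporter, a 3367 bp domain had 1005 and 2216 bp. At Aldoc, the brain aldolase, a 1507 bp domain upstream of the gene had 361 and 1212 bp and lay inside the neighbouring gene Spag5. The Notch2 domain of 1991 bp had 1239 and 162 bp. It held the start of the noncoding Gm42819 inside Notch2, as the 2932 bp domain of Slc1a3 held the start of Gm37310. Domains held an annotated TSS of the listed gene itself at Aqp4, Fgfr3 and Apoe only.

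Of 27 oligodendrocyte lineage genes 2 had a domain (7.41%), beside 1.95% of all protein-coding genes, and 2 others, Bcas1 and Tnr, had a CIN-biased stretch. The count of genes with a domain was 3 without non-CIN replicate 1, 3 without non-CIN replicate 2, 1 without CIN replicate 1 and 0 without CIN replicate 2. Nkx2-2, a homeodomain factor of oligodendrocyte precursors, had 2072 bp over an annotated start, with 1561 and 1423 bp in the CIN lists. Ptprz1 had 1576 bp, all of it under the CIN replicate 1 list and 339 bp under replicate 2. A 1691 bp domain also lay 50873 bp from the nearest protein-coding TSS, that of Olig2, outside its window. It was fully covered in CIN replicate 1 and not at all in replicate 2, and was named after its values were seen.

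For microglia the count was 1 of 22 genes (4.55%, beside 1.95% of all protein-coding genes), Cx3cr1, and the domain of 3924 bp held the start of the neighbouring gene Csrnp1, inside an annotated extent of Cx3cr1. None of 28 endothelial genes had a domain, which allows a share of up to 10.7% when 3 counts of 28 are taken as the limit of a count of 0, and of 12.1% by the Wilson interval. Of 23 mural and meningeal genes 1 (4.35%), the basement membrane collagen Col4a2, had a domain, of 1646 bp with 737 and 1153 bp in the CIN lists. Without CIN replicate 2 the microglial count was 0. The mural and meningeal count was 0 without CIN replicate 1 and 2 without non-CIN replicate 2, and the endothelial count was 1 without non-CIN replicate 2. Long non-CIN stretches of any kind lay at 3 microglial (13.6%), 2 endothelial (7.14%) and 2 mural or meningeal genes (8.70%), beside 25.8% of protein-coding genes. The 95% Wilson intervals of the share of genes with a domain included 1.95% in all 3 lists.

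Of 43 projection neuron genes 2 had a domain (4.65%, beside 1.95% of all protein-coding genes), Fezf2 and Emx1, a homeodomain factor of the dorsal telencephalon. The count was 5 without non-CIN replicate 1, 10 without non-CIN replicate 2, 2 without CIN replicate 1 and 0 without CIN replicate 2. The Emx1 domain (chr6:85187418-85188937) was 1520 bp over its start, with 1507 bp under CIN replicate 1 and 294 bp under replicate 2. Long non-CIN stretches lay at 20 of the 43 (46.5%), so that most long H3K27ac at these genes was also covered in CINs. Of 35 cortical interneuron genes 0 had a domain, which allows a share of up to 8.57% at 3 counts of 35 and of 9.89% by the Wilson interval, while 14 (40%) had a CIN-biased stretch. The interneuron count was 3 without non-CIN replicate 1 and 2 without non-CIN replicate 2. The CIN-biased stretches lay at 2 astrocyte and radial glia genes (4.76%), 2 oligodendrocyte lineage genes (7.41%) and 4 projection neuron genes (9.30%). Such stretches lay at 1.97% of all protein-coding genes.

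**Figure D4:**
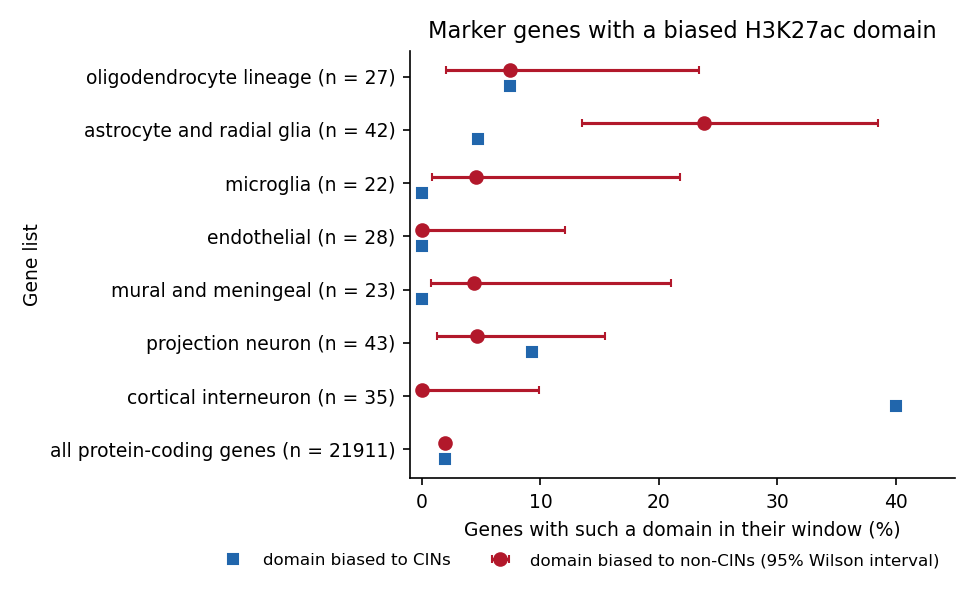
Red points give the percent of genes of each list with a domain biased to non-CINs in their window, with 95% Wilson intervals, and blue squares the percent with a CIN-biased stretch. The astrocyte and radial glia list stands at 23.8% for non-CIN-biased domains and the interneuron list at 40% for CIN-biased stretches, beside 1.95% and 1.97% of all protein-coding genes.

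Several genes held clusters of domains. A domain lay in the window of 427 genes, 57 had 2 or more, and 7 had 4 or more. Lrig1 had 6 in 101 kb, summing to 20495 bp, and Tnfrsf19 had 5 in 87.6 kb, summing to 19252 bp. H3K27ac over the Lrig1 window covered 17480 and 18051 bp in the CIN lists against 37606 and 46934 bp in the non-CIN lists. Over the Tnfrsf19 window the values were 16888 and 20377 bp against 32018 and 42997 bp. In both, each non-CIN list had more than either CIN list, as the choice of these genes by their domains favours.

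Msi2 had 5 domains in 384 kb among 14 other long non-CIN stretches. Over its whole window the populations overlapped: the CIN lists held 133115 and 80767 bp of H3K27ac, the non-CIN lists 124585 and 130002 bp. Rgs7, a regulator of G-protein signalling, had 4 domains, with 9656 and 13227 bp of H3K27ac in the CIN lists against 17977 and 20922 bp in the non-CIN lists. Xylt1, a xylosyltransferase of proteoglycan synthesis, had 4, with 39757 and 41920 bp against 65581 and 65516 bp. The 5 counted for Fgfr2 lay in an annotated extent of 2966 kb that spans other genes, and 2 of them were in the window of Ctbp2. Of all 629 domains, 116 (18.4%) lay within 50000 bp of another and 153 (24.3%) within 100000 bp.

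H3K27me3, which the choice of domains did not use, covered little of them, and more in the CIN lists than in the non-CIN lists. The CIN lists had it over 3.04% and 4.62% of the domains' bp, the non-CIN lists over 1.92% and 2.26%. Both CIN values were above both non-CIN values, with means of 3.83% ± 1.12 (SD, n = 2) and 2.09% ± 0.235 (SD, n = 2) and a difference of 1.74 percentage points. The two-sided exact permutation test over the 4 lists gave p = 0.333, the smallest that 2 against 2 lists allow, so the difference could not pass 0.05.

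The other long non-CIN stretches had 1.69% and 3.14% in the CIN lists against 1.63% and 2.12% in the non-CIN lists, where the values of the populations overlapped, although CINs were higher within each replicate number, as over the domains (difference 0.54 points, exact permutation p = 0.667). Setting each list against itself, domains exceeded the other long stretches by 1.35 and 1.48 points in the CIN lists and by 0.296 and 0.132 points in the non-CIN lists. That contrast was 1.20 points (exact permutation p = 0.333, again the smallest possible). Over the 718 CIN-biased stretches the order was reversed within each replicate number, with 9.12% and 13.3% in the CIN lists against 13.0% and 16.0% in the non-CIN lists (exact permutation p = 0.667). The CIN H3K27me3 lists covered 34.5 and 44.2 Mb of the genome in all and the non-CIN lists 39.4 and 49.8 Mb, and the part of the size of the lists in these values was not tested.

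Most of the H3K27me3 was at promoters. Over the 110 domains with a TSS the CIN lists covered 9.13% and 13.6% of bp, the non-CIN lists 6.08% and 6.49% (difference 5.10 points, exact permutation p = 0.333). The other 4050 long stretches with a TSS had 2.68% and 4.71% in the CIN lists against 2.59% and 3.14% in the non-CIN lists. Without a TSS, the 519 domains had 1.5% and 2.33% in the CIN lists against 0.871% and 1.18% in the non-CIN lists. In both subsets of the domains each CIN list was above each non-CIN list.

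**Figure D5:**
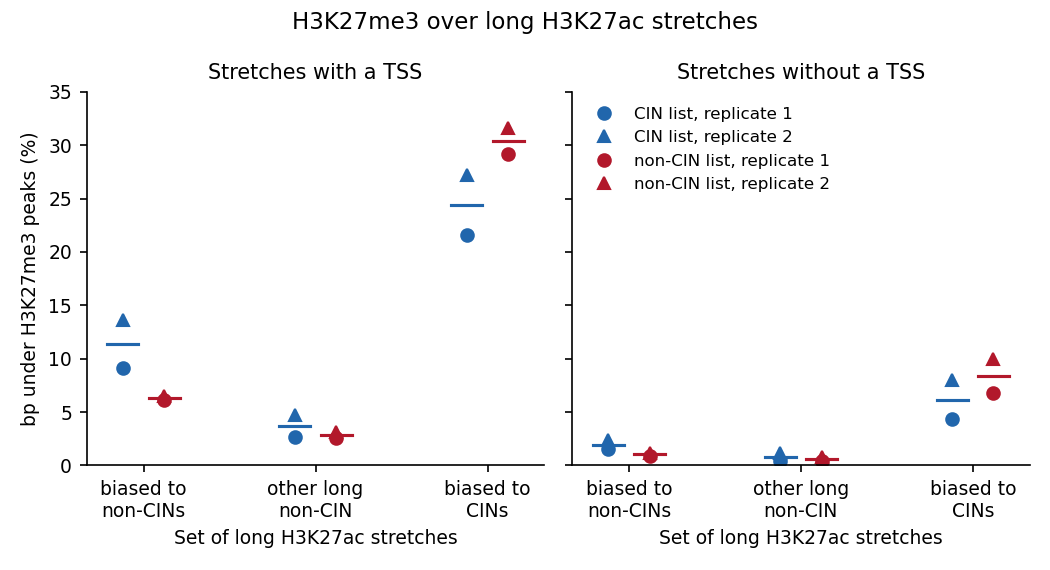
Points give the percent of bp under H3K27me3 peaks in each of the 4 H3K27me3 lists (circles replicate 1, triangles replicate 2, blue CINs, red non-CINs) and short lines their means, for stretches with a TSS (left) and without (right). Over domains biased to non-CINs with a TSS, the CIN points are at 9.13% and 13.6% and the non-CIN points at 6.08% and 6.49%.

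Single domains followed in small numbers. No H3K27me3 peak of any list touched 572 domains (90.9%, against 93.4% of all long non-CIN stretches). Peaks of both CIN lists and of no non-CIN list touched 10 (1.59%, 95% Wilson interval 0.866 to 2.90%), against 0.605% of all long non-CIN stretches. The reverse pattern was seen in 1 domain (0.159%), in Zswim6, against 0.124%. All 4 lists had H3K27me3 at 12 domains (1.91%, against 1.47%). Except for the CIN pattern, these pooled shares were near those of all long stretches, but the domains held fewer TSSs. With a TSS, no list touched 70% of the domains against 91.2% of the other long stretches. All 4 lists touched 7.27% against 2.05% there. Without a TSS these shares were 95.4% against 96.5% and 0.771% against 0.702%.

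The 10 with H3K27me3 in CINs alone included 7 TSS domains. Tcf7l2, a nuclear effector of Wnt signalling, had 4253 bp of non-CIN H3K27ac over a start (chr19:55741183-55745435), with H3K27me3 over 883 and 2022 bp of it in the CIN lists. Jag1, a Notch ligand, had a 4112 bp domain (chr2:137113727-137117838) with 367 and 296 bp of H3K27me3 in CINs. Smad3, a transducer of TGF-beta signals, had 2011 bp with 525 and 537 bp, and Erbb2, a receptor tyrosine kinase, had 1780 bp (chr11:98412182-98413961) with 179 and 328 bp. The Erbb2 domain also had no shared CIN H3K27ac. Non-CIN H3K27me3 was at 0 bp in both lists for all of these.

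The others of the 10 were at Metrnl (2254 bp, H3K27me3 441 and 756 bp), Spata3 (2170 bp, 402 and 670 bp), Cdc42ep1 (3220 bp, 472 and 1226 bp), Ppp1r3g (1850 bp, 484 and 964 bp) and Mb21d2 (1568 bp, 1236 and 1228 bp). At Iqgap2 the overlap was only 4 and 15 bp of 1673 bp, an edge contact. Mb21d2 had the largest share under CIN H3K27me3, and 1566 of its 1568 bp were also under H3K27ac of CIN replicate 1.

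Of the 12 domains with H3K27me3 in all 4 lists, the one at Fezf2 had H3K27me3 over all of its 5809 bp in each list. At Nkx2-2 it covered 2072 bp in both CIN lists and 2072 and 1965 bp in the non-CIN lists. At Emx1 both CIN lists had 1520 bp and the non-CIN lists 965 and 410 bp, the lower values being those of the population with the longer H3K27ac. At Ostm1 the CIN lists had 3309 and 4871 bp and the non-CIN lists 445 and 3020 bp, with wide gaps between replicates. Among the others with all 4 lists, and named after their values were seen, were a 3426 bp domain in the homeobox gene Dbx2, covered in full in every list, and a 1958 bp domain 6522 bp from the start of the homeobox gene Gsx2, covered over 1650 to 1958 bp.

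The limits of the set fell in a continuous range. Just under 50% CIN cover were domains tied to 6430584L05Rik (49.9%) and Wnt7a (49.8%), and just over it were stretches tied to Ccdc190 (50%), Zeb1 and Plpp3 (both 50.1%). Plpp3, a lipid phosphatase of astrocytes, thus had a 6476 bp stretch left out by a margin of bp. At the length limit, domains of 1500 and 1501 bp were tied to Cyhr1, Cdcp1 and 5033404E19Rik, and stretches of 1499 bp tied to Gm12690, Plpp3 and Gm42906 were left out with CIN covers of 19.1%, 13.3% and 0%.

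Short sequence cores were counted in the domains and in long stretches of the same position, and no difference between them was tested. Without a TSS, the palindromic E-box, SOX, NFI and RFX cores were in a lower share of the domains than of the long stretches. The homeodomain core was nearer to the long stretches there. With a TSS, both E-boxes were in a higher share of the domains, the ETS core CCGGAAG was in a lower one and the RFX core was near. Matches were counted on both strands in the central 1000 bp, for the 519 domains, the 3935 long non-CIN stretches and the 553 CIN-biased stretches without a TSS and with sequence. CTTTGT, the SOX core, was in 64.4% of the domains, 70.0% of the long stretches and 73.8% of the CIN-biased. TAATTA, a homeodomain core, was in 25.2%, 27.9% and 47.7%. The neurogenic E-box CAGATG was in 57.6%, 54.7% and 58.4%, and the palindromic E-box CAGCTG in 38.3%, 48.3% and 54.6%.

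The NFI half-site TTGGCA was in 50.1% of the domains and 55.4% of the long stretches. The AP-1 pattern TGANTCA, where N is any base, was in 29.9% and 27.2%. The TEAD core ACATTCC was in 17.9% of the domains, 15.7% of the long stretches and 10.7% of the CIN-biased. The PU.1-type ETS core AGGAAGT was in 27.9%, 25.2% and 18.6%, and the RFX core GTTGCCA in 10.4%, 14.7% and 15.6%. In these stretches without a TSS, the ETS core CCGGAAG, the FOX core TGTTTAC and the T-box core AGGTGTGA were within 1 percentage point of the long stretches. They were in 4.62%, 14.1% and 4.24% of the domains. Among stretches with a TSS, 110 domains against 4160 long stretches, the palindromic E-box was in 51.8% against 39.1%, the SOX core in 52.7% against 46.3% and the NFI half-site in 39.1% against 32.7%. There the homeodomain core was in 16.4% against 10.9% and the RFX core in 10.9% against 10.1%. A match shows only that these letters are present in the window.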

How the data were processed

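H3K27ac and H3K27me3 native ChIP-seq peak lists of Gad67-GFP P2 CINs and non-CINs were used. Alignment to mm10 by the authors used BWA 0.7.15, with SAMtools for a filter on mapping quality. They called broad peaks per replicate against the matched input with MACS2 (2.2.7 in the submitters' processing notes, another version in the methods). Of the deposited values, the fold enrichment (a ratio of ChIP over input from the authors' peak caller) was used as a percentile within its own list, and the −log10 *q* value in an alternative threshold. Read depth behind the lists is unknown here, so that a gap in a list means only that no peak was called.

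Intervals were merged and intersected in Python 3.11.15 with numpy 2.4.6, checked against bedtools 2.31.1 and on simulated lists with planted domains. Genes came from GENCODE vM21 basic, sequence from the RefSeq GRCm38 assembly (mm10). A domain was tied to a gene whose TSS it held, otherwise to the gene around it, otherwise to the nearest protein-coding TSS. Named were the 20 longest domains, those at listed genes, 3 on each side of each limit, those with H3K27me3 in both CIN lists alone, and genes with 4 or more domains. 1 of these domains at a limit is not reported here. H3K27me3 was compared by two-sided exact permutation over lists. Tissue was pooled from litters, and the labels do not say how replicates of different marks or populations relate. The domains, the marker lists and the limits were chosen with earlier results of these data known. Alternatives changed the merging gap, *q* threshold, length, cover limit, TSS definition, overlap measure and lists used.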

Additional observations from a re-analysis of the deposited data

How the results depend on the processing

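The number of domains, 629, depended on most parts of the definition. It was 317 with no merging gap, 1687 with a 1000 bp and 90 with a 3000 bp minimum, 182 with a 25% cover limit and 92 where either CIN list counted as cover. It ranged from 303 to 2049 when any of the 4 H3K27ac lists was left out: 1358 without non-CIN replicate 1, 2049 without non-CIN replicate 2, 344 without CIN replicate 1 and 303 without CIN replicate 2. A 1000 bp gap and −log10 *q* of at least 4 kept it within 1.5 times. An alternative chosen after seeing the data, less than 50% under each CIN list alone, left 122.

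The share of domains with a TSS (17.5%) was 11% with no merging gap, 13.8% and 28.9% with the 1000 and 3000 bp minimum, 11.5% with the 25% limit, 8.70% with either CIN list as cover, 12.3% under each CIN list alone and 13.0% for protein-coding genes, and ran from 13.5% to 23.4% with a list left out. In every alternative it was below the share in the other long stretches, which ran from 47% to 56.9%.

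The H3K27me3 difference stayed above 0 in all 14 alternatives, and so did the contrast with the other long stretches. Leaving out an H3K27ac list here also left out the H3K27me3 list of the same population and replicate number. The difference then ran from 1.22 to 2.93 points and the contrast from 1.09 to 1.64 points (with 1 list on a side, no p can pass 0.05). Astrocyte and radial glia genes with a domain numbered 2 to 15 across alternatives, from 10, projection neuron genes 0 to 10 and oligodendrocyte lineage genes 0 to 5, each from 2, interneuron genes 0 to 3, from 0, mural and meningeal genes 0 to 2, from 1, and microglial and endothelial genes 0 to 1, from 1 and 0. The astrocyte count was 4 without CIN replicate 1 and 3 under each CIN list alone. With the replicate block, a domain biased within each replicate number, 164 domains were left, 11.6% had a TSS and the H3K27me3 difference was 2.2 points (contrast 1.61). The labels do not say that the numbers pair the samples. Across 9998 long stretches, same-numbered lists deviated together in H3K27me3 (correlation 0.439). The stretches were chosen on both H3K27ac lists of a population, so that the same check says nothing for H3K27ac. Peak lists hold no read depth, so a weak CIN signal and none cannot be told apart.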
